A study of Arabidopsis thaliana with 3 samples.

Results

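The genes described here are 36 Arabidopsis loci that specify xylem cells and build their secondary walls. They were chosen by locus: the VND and NST NAC factors with the NAC gene XND1, 4 wall MYB factors, ATHB8, PXY and ACL5, the secondary wall cellulose synthases with wall proteins, xylan genes, laccases and xylem proteases. They are 36 of the 25383 loci that a probe on the array could be matched to, and each of the 36 had at least 1 probe. Of these, 34 could be tested, having a probe that cleared the scanner's background test in 2 or more of the 4 fe-1 and wild-type channels. The other 2, NST1 (AT2G46770) and NST3 (AT1G32770), which drive fibre wall formation, were not well above background in any channel of any array.

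The values come from 3 two-colour Agilent arrays of whole seedlings on day 7, grown at 22 °C in long days on medium with 1% sucrose. On 2 arrays, labelled as biological replicates, untreated fe-1 seedlings (Cy5) were set against untreated wild-type seedlings of the L.er accession (Cy3), both at zeitgeber time (ZT) 15. On the third array, seedlings of the line 35S::FE-GR (#5) given 1 µM dexamethasone (Dex) for 2 h (Cy5) were set against mock-treated seedlings of the same line (Cy3), at ZT14. FE (AT1G79430, also named APL) encodes a phloem MYB-related factor, and fe-1 is a mutant of it. FE-GR is FE fused to the steroid-binding part of the glucocorticoid receptor, expressed from the constitutive 35S promoter, so that Dex lets the protein enter the nucleus. Both Dex-array samples carry the transgene and come from 1 line. Dex-treated seedlings without the transgene were not analysed here, so an effect of Dex itself and one of FE-GR cannot be told apart. No array had the dyes swapped, so a probe's dye effect and the condition cannot be told apart either. All ratios are log2 of fe-1 over wild type or of Dex over mock, and the Dex comparison, with 1 array, has no error and no test.

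Xylem vessels form when NAC factors of the VND family switch on a second tier of MYB factors, which together activate genes for cellulose, xylan and lignin deposition and for the proteases that clear the dying cell. Upstream of this cascade, HD-ZIP III factors such as ATHB8 and the receptor kinase PXY govern the procambium from which xylem arises. FE/APL bears on xylem because seedlings that lack it are known to form cells with xylem features where phloem should be. The question for these genes is therefore whether their transcripts differ in fe-1 seedlings, and whether they move within hours of FE-GR activation.

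In fe-1, 4 of the 34 tested genes fell, 0 rose and 30 did not pass (limma, Benjamini-Hochberg adjusted p under 0.05 over 20680 genes). The 4 were the protease gene XCP1, the lignin regulator gene MYB63, the cellulose synthase gene CESA4 and the chitinase-like gene CTL2. Their decreases were small, between 1.18-fold and 1.27-fold. Over all tested genes 11.4% fell and 8.90% rose, 20.3% in either direction, so that the share of xylem genes that fell, 11.8%, was close to the background. At an unadjusted p under 0.05, 9 of the 34 were lower and 2, XND1 and PXY, were higher. The median of the 34 was -0.06, against -0.01 over all tested genes, and 20 of them (58.8%) read below 0 on both arrays, against a background of 39.5%. Another 7 read above 0 on both, against 34.5% of all genes. In the reported processing, the 95% interval of the ratio lay within 1.25-fold of no change for 30 of the 34. The intervals of the 4 that fell reached beyond it. These limits depend on the processing. With the scanner's processed signals MYB46 read -0.32, VND2 -0.27 and GUX1 -0.24, each below its reported interval, though none of them passed. Replicate arrays agreed to a median SD of 0.052 for these genes and for all genes alike. Across the 34 genes the replicate arrays correlated with r = 0.723 and rho = 0.641, a description over genes that share their libraries. The 4 calls hold for the reported processing and were lost in 3 of 9 alternatives, namely with spots of non-uniform local background kept, with signals as processed by the scanner and with the deposited value table.

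**Figure D1:**
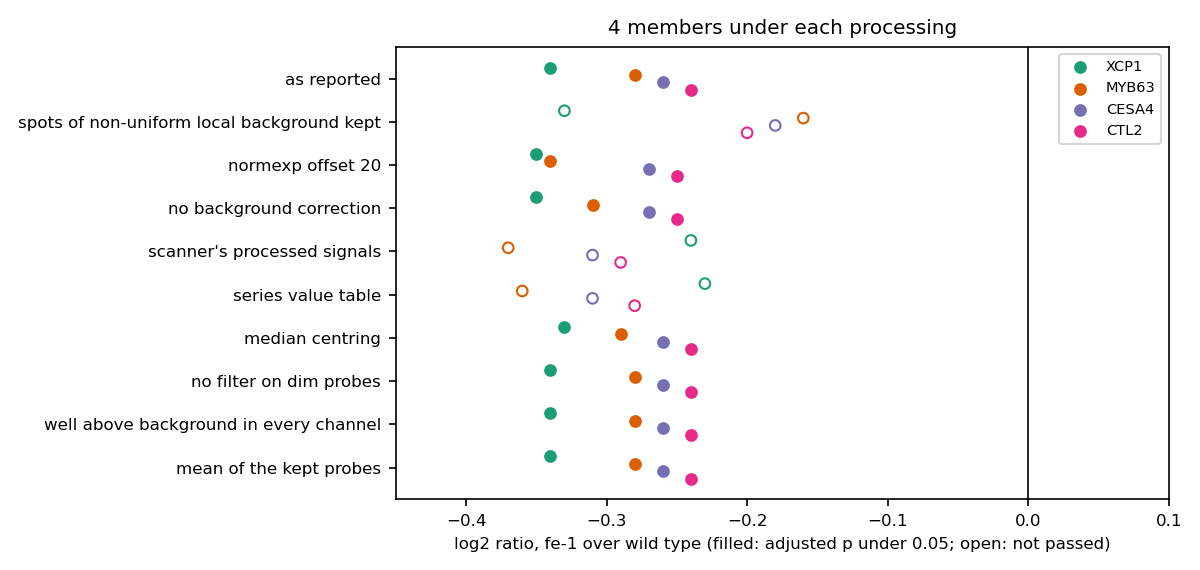
Log2 ratio of fe-1 over wild type for XCP1, MYB63, CESA4 and CTL2 under the reported processing (top) and 9 alternatives. Filled points passed the limma test and open points did not. Every point lies below 0, and the open ones fall in 3 alternatives.

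**Figure D2:**
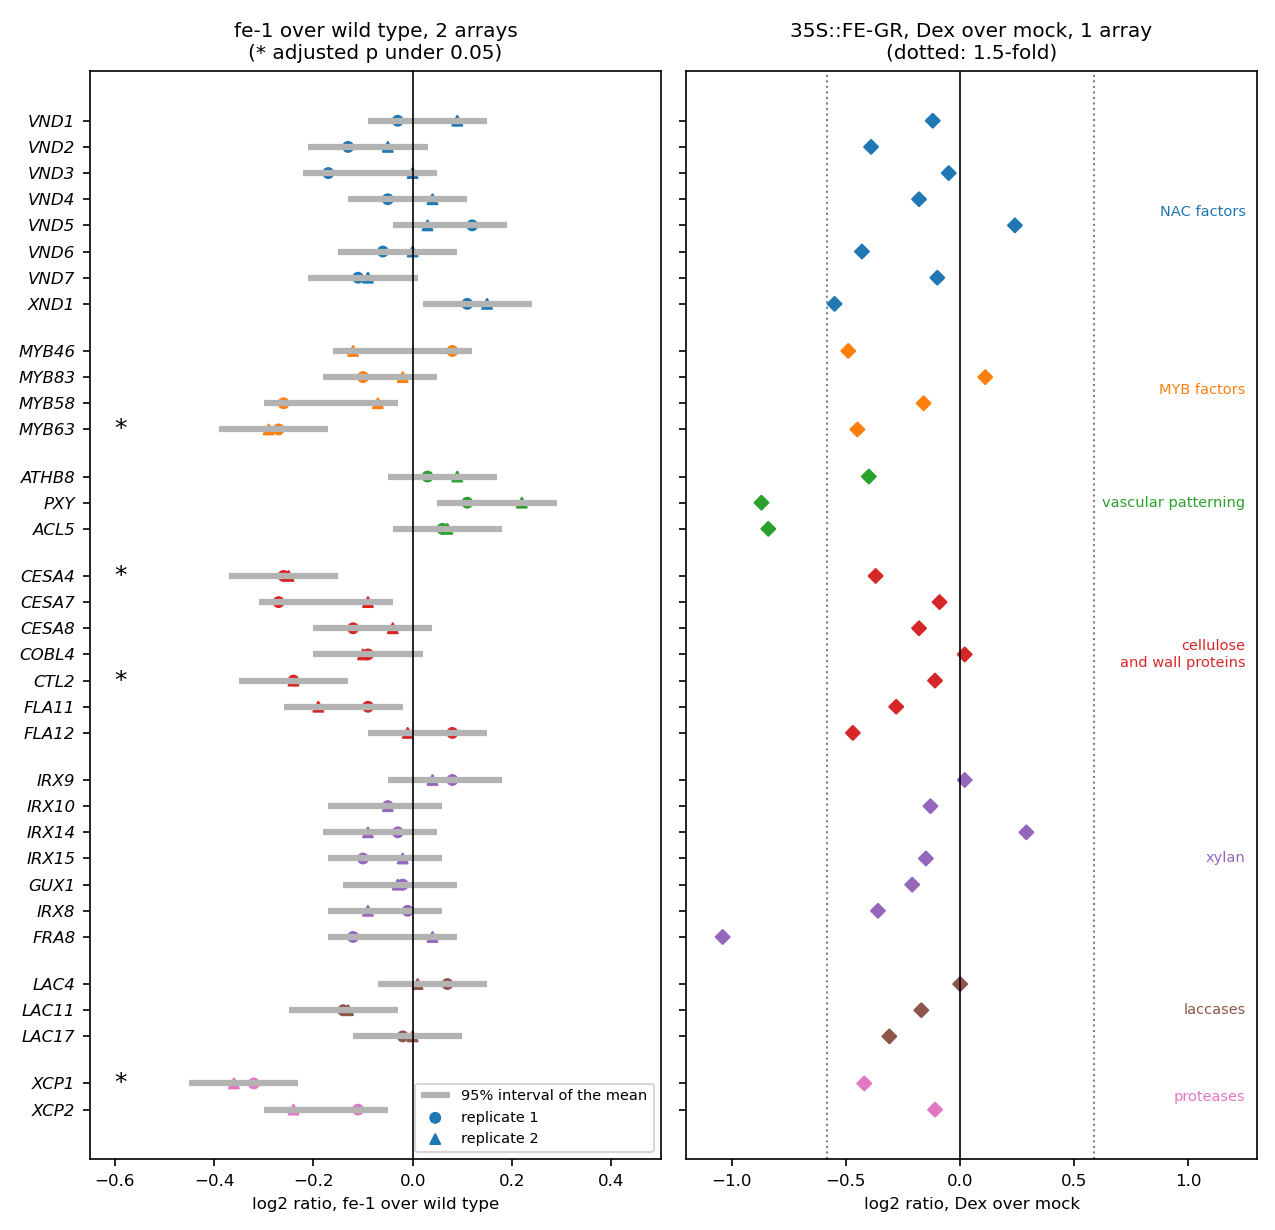
Log2 ratios of the 34 measured xylem and secondary wall genes, grouped by role. The left panel gives fe-1 over wild type on replicate 1 (circles) and replicate 2 (triangles) with the 95% interval of their mean (grey bars) and asterisks at the 4 genes that fell. The right panel gives Dex over mock on 1 array, where 29 of 34 points lie left of 0 (LAC4 almost on it) and 3 lie beyond the left 1.5-fold line.

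**Figure D3:**
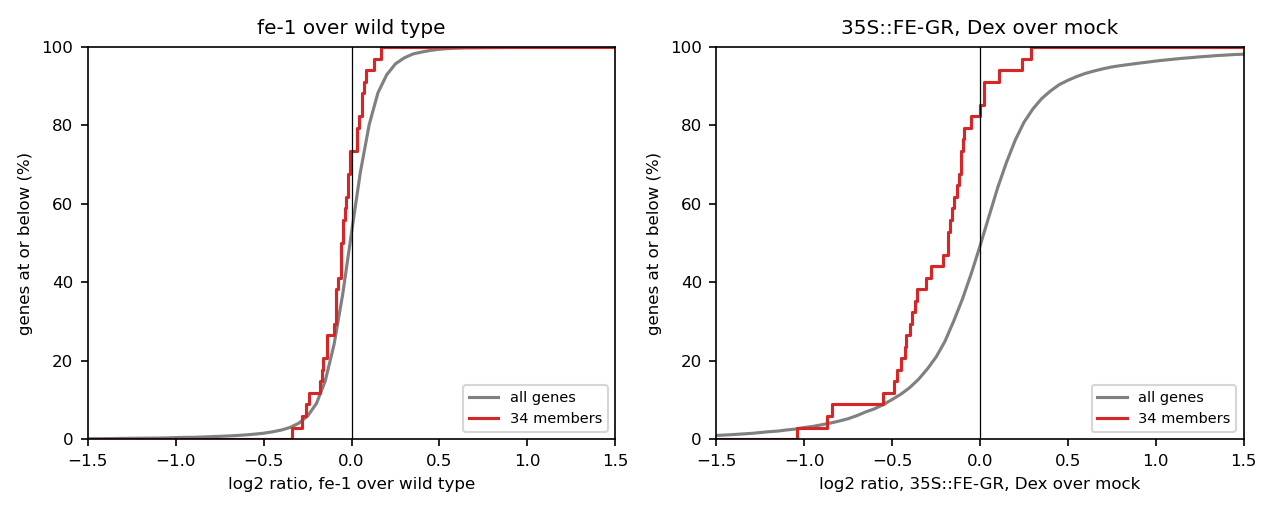
Cumulative share of genes (%) at or below each log2 ratio, for the 34 xylem genes (red) and all measured genes (grey). In fe-1 over wild type the curves lie close together, with medians of -0.06 and -0.01. On the Dex array the red curve is to the left, with medians of -0.18 and 0.01.

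Among the NAC factors none passed the test in fe-1, and the VND genes read close to wild type in the reported processing. VND6 (AT5G62380) and VND7 (AT1G71930), the switches for metaxylem and protoxylem vessels, read -0.03 ± 0.049 and -0.10 ± 0.014 (SD, n = 2 arrays; adjusted p = 0.705 and 0.188). Their 95% intervals were -0.15 to 0.09 and -0.21 to 0.01. The normalised log2 signal of VND7 was 7.21 and 7.14 in fe-1, against 7.32 and 7.23 in wild type. Both fe-1 samples were thus below both wild-type samples, as for 25.0% of all tested genes, by less than the test could call.

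The related VND1 to VND5 lay between -0.09 and 0.08, with adjusted p from 0.231 for VND2 to 0.924 for VND4. A second probe of VND3 read -0.14, against -0.09 for the probe used, and both probes of VND4 read -0.01. XND1 (AT5G64530), which restrains xylem differentiation, had the highest NAC value. It had signals of 7.42 and 7.36 in fe-1, against 7.31 and 7.21 in wild type, a difference of 0.13 ± 0.035 (adjusted p = 0.0995). The groups did not overlap, with fe-1 wholly higher, as for 19.7% of all tested genes. The call was not made in any alternative, where the ratio lay between 0.08 and 0.21.

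Of the 4 MYB factors, MYB63 fell and 3 did not pass. MYB46 (AT5G12870) and MYB83 (AT3G08500), the paired switches directly below the NAC factors, read -0.02 ± 0.144 and -0.06 ± 0.060 (adjusted p = 0.814 and 0.412). MYB46 was the only tested gene of the set that failed the background test in any of the 4 channels, in 1 of the fe-1 channels. Its signal was 6.26 and 7.61 in fe-1, against 6.18 and 7.73 in wild type, so that the arrays differed in both channels while the ratios were 0.08 and -0.12. With the scanner's processed signals the mean ratio was -0.32.

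MYB58 (AT1G16490) and MYB63 (AT1G79180), activators of lignin genes, read below 0 on both arrays. MYB63 had signals of 7.28 and 7.33 in fe-1, against 7.55 and 7.63 in wild type, and fell by 0.28 ± 0.015 (1.22-fold, adjusted p = 0.00743). The 4 values did not overlap between the groups, with fe-1 wholly lower, as for 25.0% of all tested genes. MYB58 read -0.16 ± 0.132 (adjusted p = 0.0879), and its second probe read -0.24.

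MYB63 lies close to FE itself on chromosome 1, with 21 protein-coding genes between them in the RefSeq order of genes (TAIR10.1). Of the 19 of those genes that were tested, 4 fell and 0 rose, with a median of -0.12. Over all tested genes 11.4% fell and 8.90% rose, with a median of -0.01. Among the 43 tested genes within 25 genes on either side of MYB63, 5 fell and 5 rose, with a median of -0.03, and 1 gene read lower than MYB63. The part of linked differences in the MYB63 value was not tested. None of the other 3 genes that fell is on chromosome 1.

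The procambium and patterning genes read slightly above wild type in fe-1, and none passed the test. PXY (AT5G61480), the receptor kinase that keeps procambial cells dividing, had signals of 10.03 and 10.01 in fe-1, against 9.91 and 9.79 in wild type (0.17 ± 0.074, adjusted p = 0.0574). ACL5 (AT5G19530), the thermospermine synthase gene whose product delays vessel cell death, had 10.02 and 10.08 in fe-1, against 9.96 and 10.01 in wild type (0.07 ± 0.0049, adjusted p = 0.344). ATHB8 (AT4G32880) had 10.52 and 10.55 in fe-1, against 10.49 and 10.46 in wild type (0.06 ± 0.042, adjusted p = 0.413). All 3 were above 0 on both arrays, and in each the fe-1 values lay above the wild-type values by an amount the test did not call. Over all tested genes 34.5% read above 0 on both arrays, and 19.7% had fe-1 values wholly above the wild-type values.

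**Figure D4:**
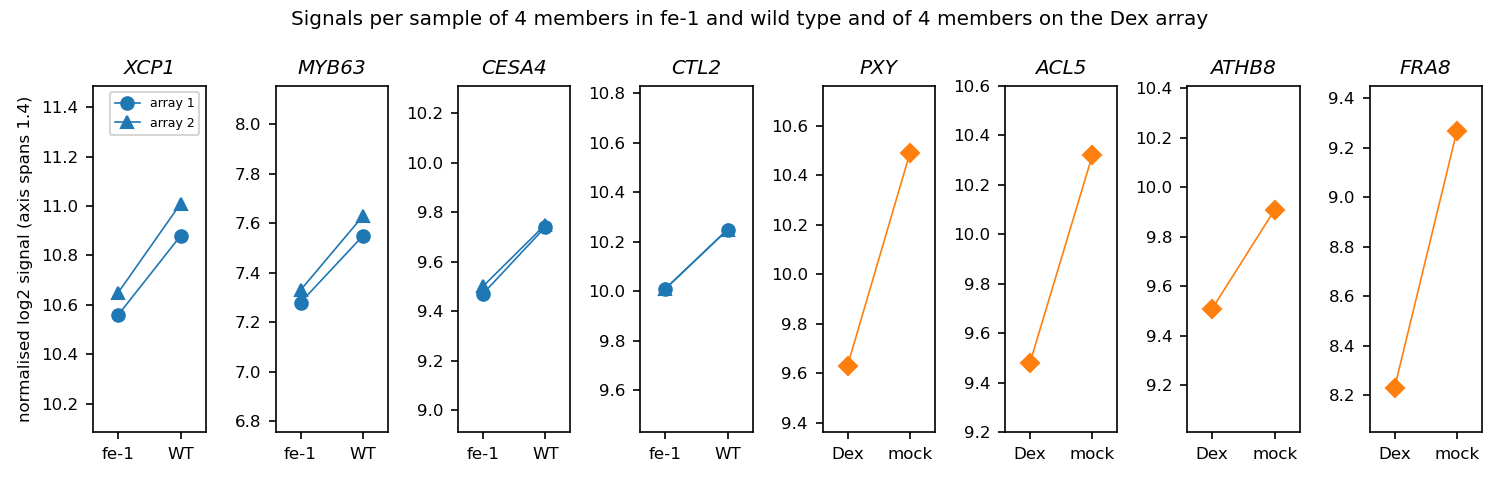
Normalised log2 signal per sample for XCP1, MYB63, CESA4 and CTL2 in fe-1 and wild type (lines join the channels of an array) and for PXY, ACL5, ATHB8 and FRA8 with Dex and mock on 1 array. Each vertical axis spans 1.4 log2 units. The first 4 genes differ by 0.24 to 0.34, the last 4 by 0.40 to 1.04.

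Of the cellulose and wall protein genes, CESA4 and CTL2 fell and 5 did not pass. CESA4 (AT5G44030), a subunit of the secondary wall cellulose synthase, had signals of 9.47 and 9.50 in fe-1, against 9.74 and 9.75 in wild type, and fell by 0.26 ± 0.0057 (1.20-fold, adjusted p = 0.0104). Its partner subunits CESA7 (AT5G17420) and CESA8 (AT4G18780) read -0.18 ± 0.126 and -0.08 ± 0.054 (adjusted p = 0.0672 and 0.287). The CESA7 value differed between the arrays, at -0.27 on replicate 1 and -0.09 on replicate 2. The 95% interval of CESA7, -0.31 to -0.04, took in the CESA4 value, and that of CESA8, -0.20 to 0.04, did not. The differences between the subunits were not tested.

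CTL2 (AT3G16920), a chitinase-like protein of cellulose assembly, had 10.01 and 10.01 in fe-1, against 10.25 and 10.25 in wild type, and fell by 0.24 ± 0.00091 (1.18-fold, adjusted p = 0.0132). The spread was far below the median SD of 0.052, and limma's moderated error, 0.048, rests on the spread over all genes. The fasciclin-like gene FLA11 (AT5G03170) read -0.14 ± 0.073 (adjusted p = 0.0942), and FLA12 (AT5G60490) read 0.03 ± 0.065. COBL4 (AT5G15630), a COBRA-like protein of cellulose deposition, read -0.09 ± 0.0054 (adjusted p = 0.210).

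In the reported processing the 7 xylan genes stayed within 0.06 of 0, and none passed. IRX9 (AT2G37090), IRX10 (AT1G27440) and IRX14 (AT4G36890), which extend the xylan backbone, read 0.06 ± 0.029, -0.05 ± 0.00015 and -0.06 ± 0.045. IRX15 (AT3G50220), which affects xylan chain length, read -0.06 ± 0.057, and GUX1 (AT3G18660), which adds glucuronic acid side chains, read -0.02 ± 0.0045. IRX8 (AT5G54690) and FRA8 (AT2G28110), needed for the end sequence of the chain, read -0.05 ± 0.054 and -0.04 ± 0.115. The lowest adjusted p in this group was 0.380, for IRX9. Over these 7 genes the 95% limits of the reported processing reached no further than -0.18 and 0.18. With the scanner's processed signals GUX1 read -0.24 and IRX15 -0.22, beyond these limits, and neither passed (adjusted p = 0.194 and 0.0954).

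The 3 laccase genes, whose products polymerise lignin, did not pass either. LAC11 (AT5G03260) had signals of 9.70 and 9.64 in fe-1, against 9.85 and 9.77 in wild type (-0.14 ± 0.0082, adjusted p = 0.0801). LAC4 (AT2G38080) and LAC17 (AT5G60020) read 0.04 ± 0.040 and -0.01 ± 0.010, and the second probe of LAC4 read 0.03.

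Among the proteases that digest the vessel cell's contents, XCP1 fell and XCP2 did not pass. XCP1 (AT4G35350) had signals of 10.56 and 10.65 in fe-1, against 10.88 and 11.01 in wild type, and fell by 0.34 ± 0.033 (1.27-fold, adjusted p = 0.0038). With the scanner's processed signals its ratio was -0.24, against -0.37 for MYB63. XCP2 (AT1G20850) had 11.71 and 11.71 in fe-1, against 11.82 and 11.95 in wild type (-0.17 ± 0.090, adjusted p = 0.0553). Neither gene's groups overlapped, with fe-1 wholly lower, as for 25.0% of all tested genes. XCP2 passed in 1 of the 9 alternatives, that which kept only probes above background in every channel (adjusted p = 0.0491).

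Over the set, the fe-1 values lay wholly below the wild-type values for 13 genes and wholly above for 5, and they overlapped for 16. Over all tested genes, 25.0% lay wholly below and 19.7% wholly above.

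In whole seedlings, fewer cells of a type and less RNA per cell cannot be told apart. Some markers of other organs and cell types also differed between the samples. Of 7 root markers, the root hair genes COBL9, RHS19, EXPA7 and EXPA18 (-1.30 to -0.86) and the endodermis gene CASP1 (-0.33) fell, while SCR (-0.06) and PLT1 (-0.08) did not pass. Their summed signal was 4210 to 4840 in fe-1, against 6260 to 6790 in wild type. Of 6 leaf photosynthesis markers, 5 rose, and their summed signal was 1140000 to 1180000 in fe-1, against 843000 to 849000 in wild type. These leaf markers also had a higher sum on the Dex array, 1310000 with Dex and 934000 with mock. The part of these differences in the xylem values was not tested. Of 9 phloem markers, RTM1 rose, and SEOA and FE itself, the gene named in the mutant, fell, with a summed signal of 6650 to 7130 in fe-1, against 7530 to 7810 in wild type. The phloem markers summed to 47400 with Dex and 23100 with mock. SUC2, a phloem sucrose transporter gene, had log2 signals of 14.84 with Dex and 11.64 with mock, and without it the other 8 summed to 18000 with Dex and 19900 with mock. Without SUC2 and FE, which the transgene also supplies, the sums were 6160 with Dex and 5750 with mock. The root markers summed to 4150 with Dex and 4570 with mock. All markers were above background in every channel except PLT1 with Dex and NEN4 in fe-1. FE read 9.83 and 9.72 in fe-1, against 9.99 and 9.91 in wild type (-0.17 ± 0.031, adjusted p = 0.0432). What the lesion is in fe-1 is not given in the sources used here, so this level checks no label.

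On the Dex array, 3 of the 34 xylem genes were at least 1.5-fold lower with Dex than with mock, and 0 were at least 1.5-fold higher. The 3 were FRA8, PXY and ACL5. Over all 20494 genes measured on the array, 8.07% were at least 1.5-fold lower and 6.95% at least 1.5-fold higher, so that the xylem share of 8.82% was close to the background in the reported processing. The distribution leaned to lower values: 29 of the 34 (85.3%) read below 0, against a background of 49.3%, and the median was -0.18, against 0.01 over all genes. The middle part of the set, from -0.41 to -0.11, lay below 0 where that of all genes ran from -0.20 to 0.19. With median centring in place of loess, the median of all genes on this array was 0.22 and that of the xylem genes -0.12, so that their distance of -0.34 was larger than the -0.19 of the reported processing.

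Of the patterning genes, PXY and ACL5 passed 1.5-fold and ATHB8 did not. PXY had a log2 signal of 9.63 with Dex and 10.49 with mock, 1.82-fold lower with Dex. ACL5 had 9.48 with Dex and 10.32 with mock, 1.80-fold lower. ATHB8 had 9.51 with Dex and 9.91 with mock, a ratio of -0.40. In fe-1 the same 3 genes read 0.17, 0.07 and 0.06. These comparisons differ in genotype, treatment and time, and the difference between them was not tested. Over the 9 alternatives, PXY lay between -0.95 and -0.56 on the Dex array and ACL5 between -0.91 and -0.54, while ATHB8 lay between -0.43 and -0.11. The smallest size of each came from median centring.

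FRA8 is a glycosyltransferase gene of xylan synthesis. Its log2 signal was 8.23 with Dex and 9.27 with mock, 2.06-fold lower with Dex. Its second probe read -0.73, and over the alternatives the gene lay between -1.30 and -0.83. The other 6 xylan genes read between -0.36 (IRX8) and 0.29 (IRX14), the highest value of the set.

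Of the NAC genes, XND1 had 6.07 with Dex and 6.62 with mock, and it was not well above background with Dex. It was at least 1.46-fold higher with mock for this probe and processing. VND6 and VND2 read -0.43 and -0.39, and VND7, VND1, VND3 and VND4 between -0.18 and -0.05. VND5 read 0.24. These probes are dim, and the offset of 50 added before taking logs shrinks their ratios. With the scanner's processed signals, 9 genes of the set were at least 1.5-fold lower: VND2, VND6, XND1, MYB46, MYB58 and MYB63 besides PXY, ACL5 and FRA8. With an offset of 20 there were 7, all of them among these 9. The shares of the set were then 26.5% and 20.6%, against 12.6% and 9.41% of all genes, so that the closeness to the background given above does not hold under these settings. With median centring the share was 5.88%, against 5.91% of all genes. Without background correction it was 8.82%, against 9.12%.

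MYB46 had signals of 6.91 with Dex and 7.40 with mock (-0.49), and MYB63 had 6.82 with Dex and 7.27 with mock (-0.45). MYB58 and MYB83 read -0.16 and 0.11. The cellulose and wall protein genes ran from -0.47 (FLA12) and -0.37 (CESA4) over -0.28 (FLA11), -0.18 (CESA8), -0.11 (CTL2) and -0.09 (CESA7) to 0.02 (COBL4). Of the laccases, LAC17 read -0.31, LAC11 -0.17 and LAC4 0.00. XCP1 had 10.10 with Dex and 10.52 with mock (-0.42), and XCP2 read -0.11.

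The fe-1 and Dex RNA carried the same dye. The 4 genes that fell in fe-1 also read below 0 on the Dex array in the reported processing, as did 29 of all 34 genes (85.3%). With median centring CTL2 read 0.20 there, and the other 3 stayed below 0. Across the 34 genes, the mean fe-1 ratio and the Dex ratio correlated with r = -0.158 and rho = -0.190. This describes genes, which share arrays and dye orientation, and is no test.

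The wider pathway was read from lists of other genes with roles in xylem or cell walls, and of the other laccases. They were chosen by function, with earlier results of these data known. The calls in these lists depend on the processing: the number of genes lower was 0 in at least 2 of the 9 alternatives for every list. The number of genes higher was 0 in 2 of the 9 for the upstream regulators, 3 for the other xylan genes and 4 for the other laccases. In each list with 0 genes higher by limma, 0 were also higher at an unadjusted p under 0.05. For comparison with the counts of each list, 11.4% of all tested genes fell and 8.90% rose in fe-1. On the Dex array 8.07% of all genes were at least 1.5-fold lower and 6.95% at least 1.5-fold higher. In the lignin monomer pathway, 9 of 14 genes fell in fe-1, 0 rose and 5 did not pass, with a median of -0.21. With Dex 9 of the 14 were at least 1.5-fold lower and 0 higher, with a median of -0.62. COMT1 (AT5G54160), a methyltransferase of the pathway, had signals of 13.75 and 13.70 in fe-1, against 14.12 and 14.08 in wild type, and fell by 0.37 ± 0.0085 (adjusted p = 0.00236). PAL1 (AT2G37040), the entry enzyme gene, fell by 0.34 ± 0.00065 (adjusted p = 0.00342), CAD4 by 0.31 ± 0.053 and PAL4 by 0.31 ± 0.095. The lowest values with Dex were F5H1 at -1.43, 4CL1 at -1.37, PAL1 at -1.11 and COMT1 at -1.02. PAL1 had 10.93 with Dex and 12.04 with mock. These enzymes also serve phenylpropanoid metabolism outside xylem. The fe-1 calls numbered 5 with median centring and 0 in the same 3 alternatives that lost the calls above, and on the Dex array 4 genes passed 1.5-fold with median centring.

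**Figure D5:**
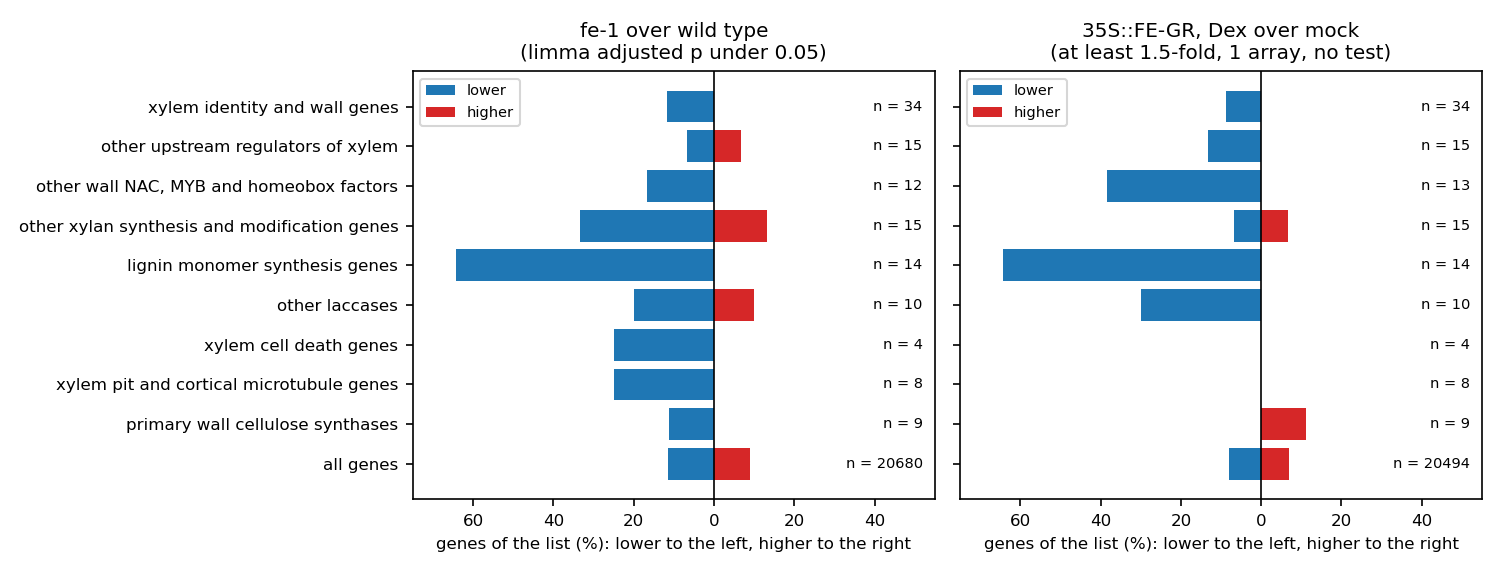
Share of each gene list (%) that was lower (blue, to the left) or higher (red, to the right) in fe-1 over wild type by limma and, without a test, at least 1.5-fold on the Dex array. The xylem genes and all genes have similar shares on the lower side, and the lignin monomer list has 9 of 14 genes on that side in each panel.

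Of 12 further NAC, MYB and homeobox wall factors tested, 2 fell and 0 rose. They were MYB43 (-0.32 ± 0.026, adjusted p = 0.00491) and MYB4 (-0.20 ± 0.011, adjusted p = 0.0257), the second a repressor of phenylpropanoid genes. With Dex 5 of 13 were at least 1.5-fold lower, led by MYB7 (-1.49), MYB20 (-1.43) and MYB4 (-1.38), with MYB43 at -0.73.

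Among 15 other upstream regulators, 1 rose and 1 fell. CLE41 (AT3G24770), which encodes the peptide ligand of PXY, had signals of 8.37 and 8.28 in fe-1, against 7.96 and 7.75 in wild type, and rose by 0.47 ± 0.079 (1.39-fold, adjusted p = 0.00128). In 2 of the 9 alternatives this list had 0 genes higher, so that the CLE41 call was lost there. CLE41 is made in phloem, next to the cells that carry PXY. VNI2 (AT5G13180), a NAC repressor that binds VND7, fell by 0.23 ± 0.050 (adjusted p = 0.0178), a call lost in 4 of the 9 alternatives. CLE41 read -0.04 with Dex, while TMO5, a bHLH factor of young vascular cells, read -1.21. WOX4, a procambium homeobox gene downstream of PXY, was not well above background with Dex. The HD-ZIP III relatives of ATHB8, singled out after their values were seen, all read below 0 with Dex, as did 49.3% of all genes. They read -0.57 (ATHB15), -0.53 (PHB), -0.47 (REV) and -0.20 (PHV) with Dex, and between 0.00 and 0.06 in fe-1.

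Of 15 other xylan genes, 2 rose and 5 fell in fe-1. GXM2 and GXM1, xylan methyltransferase genes, fell by 0.87 ± 0.013 (adjusted p = 4.3e-05) and 0.53 ± 0.069 (adjusted p = 0.000723). GXM2 had signals of 8.31 and 8.33 in fe-1, against 9.17 and 9.20 in wild type, a larger decrease than that of any of the 34 genes above in the reported processing. IRX15L, the relative of IRX15, fell by 0.35 ± 0.059, while RWA2, which acts in wall acetylation, rose by 0.29 ± 0.060. With Dex GXM2 read -0.01 and GXM1 -0.46, while ESK1, a xylan acetyltransferase gene, read -0.99 and PARVUS 0.62.

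Of 10 other laccases tested, 1 rose and 2 fell in fe-1. LAC7 fell by 0.57 ± 0.092 (adjusted p = 0.000633) and LAC1 by 0.44 ± 0.160 (adjusted p = 0.00369), and LAC12 rose by 0.21 ± 0.037. All 10 read below 0 with Dex, against 49.3% of all genes. At least 1.5-fold lower were 3 of them, against 8.07% of all genes: LAC1 at -2.09, LAC3 at -1.01 and LAC7 at -0.71. That count was 2 with median centring and 6 with the processed signals or the value table. LAC1 had a log2 signal of 6.38 with Dex and 8.47 with mock, 4.26-fold lower with Dex.

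Of the 4 cell death genes, the metacaspase gene MC9 fell by 0.23 ± 0.065 (adjusted p = 0.0201) and 3 did not pass. Of 8 genes for wall pits and cortical microtubules, 2 fell and 0 rose: ROPGEF4 by 0.37 ± 0.015 (adjusted p = 0.00253), which positions pits in metaxylem walls, and MAP70-5 by 0.22 ± 0.063. None of these 12 genes passed 1.5-fold on the Dex array. Of 9 primary wall cellulose genes, CESA3 fell by 0.18 ± 0.024 (adjusted p = 0.0379), a call lost in 7 of the 9 alternatives, and with Dex CESA6 read 0.61.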

How the data were processed

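RNA of whole Arabidopsis seedlings was labelled and hybridised to 3 two-colour Agilent arrays. The deposited scanner files hold spot intensities and log10 ratios of Cy5 over Cy3, and the file headers name Feature Extraction version 10.7.3.1 as their source. The authors also deposited a value table, and its log2 ratios matched the scanner's within 0.005 with a median of 0 on each array. Its direction is Cy5 over Cy3, so fe-1 over wild type and Dex over mock.

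Median spot and background intensities were used, and 32 spots of non-uniform local background on fe-1 replicate 1 were left out first. Normexp (offset 50) and loess within each array followed. Control and outlier spots stayed in the normexp fit, had no weight in the loess and gave no values. A limma 3.58.1 fit in R 4.3.3 tested the 2 fe-1 ratios against 0 over 20680 genes, with 1 residual and 6.54 prior degrees of freedom and Benjamini-Hochberg adjustment at 0.05. A gene was tested where a probe cleared the scanner's background test in 2 or more of the 4 channels, and the brightest such probe stood for it. On the Dex array 1 of the 2 channels sufficed, and a 1.5-fold threshold took the place of a test. The limma steps were run on simulated data drawn from limma's own model, with changes larger than those of the called xylem genes. That run checks the code and cannot bear on these calls. Of 43603 probes, 34285 matched a locus through RefSeq accessions (TAIR10.1) and 9318 did not. Between 72.1% and 78.1% of spots were well above background in a channel, and no spot was saturated. Precision is limited by the number of arrays.

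The fe-1 arrays are labelled as biological replicates with no further detail. The p-values rest on the spread between these arrays, which limma moderates with the spread over all genes, and on no other samples. Both fe-1 arrays were on 1 slide, so a slide effect common to them and the genotype cannot be told apart. The 36 genes and the lists of other genes were chosen with earlier results of these data known. The named genes are all 36, plus called genes and those past 1.5-fold with the largest ratios from each list, and the HD-ZIP III relatives of ATHB8, which were chosen after their values were seen. Alternatives changed the spots left out, the offset, the background correction, the signal source, the centring, the filter on dim probes and the choice of probe.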

Additional observations from a re-analysis of the deposited data

How the results depend on the processing

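Of the 9 alternatives to the processing, 6 kept the calls of XCP1, MYB63, CESA4 and CTL2, and the filter on every channel added XCP2 for 5 in all. The count of xylem genes that fell was 0 by limma with spots of non-uniform background kept, with the scanner's own processed signals and with the value table, where 5, 10 and 9 were lower at an unadjusted p under 0.05. Over all genes these 3 alternatives called 7, 139 and 0 higher and 42, 411 and 0 lower, against 1841 higher and 2348 lower as reported, with 2272, 6460 and 6037 genes at an unadjusted p under 0.05. The 32 spots moved the fitted background mean of replicate 1 to -1128 in Cy5. No xylem gene rose in any alternative. The fe-1 median of -0.06 became -0.02 with those spots kept, -0.09 without background correction and -0.10 with the processed signals or the value table, and it ran from -0.08 to -0.04 with either replicate left out. A lone array has no residual degrees of freedom, so no test was run there. On the Dex array, 7 genes were at least 1.5-fold lower with an offset of 20, and 9 with the processed signals or the value table. These were 20.6% and 26.5% of the set, against 9.41% and 12.6% of all genes. With median centring there were 2 (XND1 and FRA8), 5.88% of the set, against 5.91% of all genes. The Dex median of -0.18 became -0.27 without background correction, -0.35 with the processed signals or the value table and -0.12 with median centring. PXY read -0.95 and ACL5 -0.91 with the processed signals or the value table, and -0.56 and -0.54 with median centring. FRA8 read -1.12 with an offset of 20, -1.11 without background correction, -1.30 with the processed signals or the value table, -0.83 with median centring and -0.89 as the mean of its probes. In fe-1 no called gene changed sign, and 6 uncalled genes did in at least 1 alternative. On the Dex array 10 genes changed sign in at least 1, 8 of them with median centring, CTL2 among these. The lists of other genes were run under the same alternatives after the data were seen. Their counts of genes lower fell to 0 in 2 to 7 of the 9, most often for the primary wall genes (7) and the upstream regulators (4). The cause of these shifts was not tested. No paired analysis was possible because each array already sets fe-1 against wild type as 1 ratio.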

Other observations

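All 9 primary wall cellulose genes (cellulose synthases with CTL1, COB and KOR1) read below 0 on both fe-1 arrays in the reported processing, against 39.5% of all genes, with a median of -0.13. Over the 9 alternatives the count lay between 6, with median centring, and 9. Only CESA3 passed limma's test, and its call was lost in 7 of the 9 alternatives. On the Dex array 5 of these 9 genes read above 0, with a median of 0.04, or 0.39 with median centring.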
